A study of Mus musculus with 6 samples.

Results

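The chemokine ligand genes of mouse liver were compared between DOX and PBS. They were taken as every symbol of the count table that begins with Ccl or Cxcl and ends in a number, with at most 1 letter after the number of a Ccl gene, together with Cx3cl1 and Xcl1. This gave 36 of the 20914 listed genes, and none of them was chosen by its values. All 36 had a count in at least 1 library. Pf4 and Ppbp, 2 platelet chemokines with names of another form, are not matched by the rule. Of the 36 genes, 24 passed the filter on low counts and were tested, and 12 did not.

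The 6 liver libraries comprised 3 labelled DOX and 3 labelled PBS. All 6 had the genotype label BucheKI/KI-Hep, the names CKI and Alb-Cre, the treatment label BDL and the prefix S10D, and the labels spell none of these out. Alb-Cre is the usual name of a Cre recombinase driven by the albumin promoter in hepatocytes, and BDL commonly stands for bile duct ligation. The PBS group therefore carried the same genotype and BDL labels as the DOX group, and no library without them was analysed here. The series title concerns butyrylcholinesterase and hepatic stellate cells. No age or strain is given. Whether each library is a different animal is not said either, and the p-values reflect only the spread among these 6 libraries, which may be technical.

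Chemokines are small secreted proteins that bind receptors on the surface of leukocytes and steer their migration. They are grouped by the spacing of their first cysteines into the CC, CXC, CX3C and C classes, and many ligands share a receptor. In the liver they are made by Kupffer cells, stellate cells, endothelium, bile duct cells, leukocytes and hepatocytes. After bile duct obstruction they are known for drawing neutrophils and monocytes into the tissue.

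The libraries held between 32826493 and 41102844 counts. Taken as the floor, 3 counts corresponded to 0.073 to 0.0914 CPM (read counts relative to library size) before TMM scaling. The CPM of genes and marker sums are given with TMM scaling. Bche, which encodes butyrylcholinesterase, stood at 969, 448 and 595 CPM in DOX against 193, 245 and 194 CPM in PBS, without overlap. Its edgeR adjusted p was 0.106, and its DESeq2 adjusted p was 3.6e-08. PBS replicate 2 and DOX replicate 3 were low in some cell marker sums. The 8 liver endothelial markers summed to 84.2 CPM in PBS replicate 2 and to between 135 and 240.0 CPM in the others. The 9 stellate and fibroblast markers summed to 215 CPM in DOX replicate 3, to 252 CPM in PBS replicate 2 and to between 354 and 511 CPM in the others.

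The 300-base windows around the start sites of 4 members are shown because Cxcl1, Cxcl2 and Cxcl3 are neighbours of similar sequence on chromosome 5 and were counted at very different levels, and because Cxcl10 held both motifs searched. The sequences are RefSeq's for GRCm38.p6, run from 250 bases before the start to 50 bases after it, and are given 5′ to 3′ on the strand of the gene. Capitals mark matches, on either strand, to a kappaB-like motif (GGG, then 3 bases of any kind, then TTCC) or to an interferon-response-like motif (GAAA, then 2 bases of any kind, then GAAA). The windows are chr5:90890995-90891294 for Cxcl1, chr5:90903649-90903948 for Cxcl2 and chr5:90785851-90786150 for Cxcl3 on the plus strand, and chr5:92348840-92349139 for Cxcl10 on the minus strand.
Cxcl1: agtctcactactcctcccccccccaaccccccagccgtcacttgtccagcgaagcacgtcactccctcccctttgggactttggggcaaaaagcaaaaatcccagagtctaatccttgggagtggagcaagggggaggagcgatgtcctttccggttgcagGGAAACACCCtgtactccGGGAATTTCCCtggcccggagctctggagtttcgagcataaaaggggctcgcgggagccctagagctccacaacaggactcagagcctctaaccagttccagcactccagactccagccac
Cxcl2: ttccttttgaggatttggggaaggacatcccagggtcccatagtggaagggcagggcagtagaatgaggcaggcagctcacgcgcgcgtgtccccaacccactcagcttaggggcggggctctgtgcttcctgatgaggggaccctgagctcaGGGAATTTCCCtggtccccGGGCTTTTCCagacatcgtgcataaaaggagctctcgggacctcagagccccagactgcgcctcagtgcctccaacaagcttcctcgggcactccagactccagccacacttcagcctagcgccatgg
Cxcl3: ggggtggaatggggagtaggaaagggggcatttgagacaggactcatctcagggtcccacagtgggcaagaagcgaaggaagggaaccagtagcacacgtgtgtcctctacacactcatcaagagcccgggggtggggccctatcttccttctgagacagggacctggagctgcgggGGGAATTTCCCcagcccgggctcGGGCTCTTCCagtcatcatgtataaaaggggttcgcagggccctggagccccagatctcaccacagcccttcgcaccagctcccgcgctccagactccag
Cxcl10: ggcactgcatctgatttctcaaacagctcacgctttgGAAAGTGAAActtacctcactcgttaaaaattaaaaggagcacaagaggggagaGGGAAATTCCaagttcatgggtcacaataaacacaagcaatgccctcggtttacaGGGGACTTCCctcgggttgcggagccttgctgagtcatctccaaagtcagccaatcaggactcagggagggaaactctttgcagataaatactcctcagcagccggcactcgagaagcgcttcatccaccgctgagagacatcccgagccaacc

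The 10 letters GGGAATTTCC, where a match on the opposite strand begins 1 base further on, began at position -71 in Cxcl1, -97 in Cxcl2 and -73 in Cxcl3, counted from the start site. Cxcl10 held GGGAAATTCC at -159, GGGGACTTCC at -104 and the interferon-like GAAAGTGAAA at -213. Of the 26 members with a promoter in the table, 7 held a kappaB-like match (Ccl1, Ccl20, Ccl9, Cxcl1, Cxcl10, Cxcl2 and Cxcl3), and 3 held an interferon-like match (Ccl19, Cxcl10 and Cxcl14). These 26 members had 32 windows, of which 7 held the kappaB-like and 3 the interferon-like motif. Ccl2, Ccl4, Ccl5, Ccl7, Ccl11, Ccl24, Ccl26, Cxcl5, Cxcl16 and Cxcl17 had no window and were not searched. Of all 32851 promoter windows of the same length, 5.56% held the kappaB-like motif and 3.44% the interferon-like motif. No base belonged to matches of both motifs in any member's window. A match describes the letters of the window and does not show a bound site.

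Across the ligands, none of the 24 tested genes passed edgeR's quasi-likelihood test of DOX against PBS at an adjusted p of 0.05. Their adjusted p ran from 0.444 to 0.981, and a value above the threshold does not show that a gene was unchanged. Of all 13725 tested genes, 4 passed, or 0.0291%, with 0.0219% higher and 0.00729% lower in DOX, so that 0 of 24 is near the background. At an unadjusted p under 0.05 there was 1 ligand, Ccl21a, or 4.17% of the tested ligands, against 9.90% of all tested genes. DESeq2 also called 0 of the 24, against 1.31% of all genes. The groups did not overlap for 3 ligands (Ccl21a, Ccl12 and Ccl27a), or 12.5%, against 16.9% of all tested genes. All DOX libraries lay above all PBS libraries for Ccl21a and Ccl12, or 8.33%, against 7.84% of all tested genes, and below them for Ccl27a, or 4.17%, against 9.02%. The log2 fold change of DOX over PBS was positive for 15 ligands and negative for 9, with a median of 0.16, against 47.0% positive and a median of -0.02 over all tested genes. Scaled by library size only, the medians were 0.03 for the ligands and -0.15 for all genes, and 14 ligands were positive. The standard errors of the ligands were wide, with a median of 0.36 on the log2 scale, against 0.16 over all tested genes. The fitted log2 fold change reached 1 in either direction for 3 ligands (Ccl21a, Ccl12 and Ccl28), or 12.5%, against 2.40% of all tested genes. In their lowest PBS library, Ccl21a held 5 counts, Ccl12 held 2 and Ccl28 held 1.

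**Figure D1:**
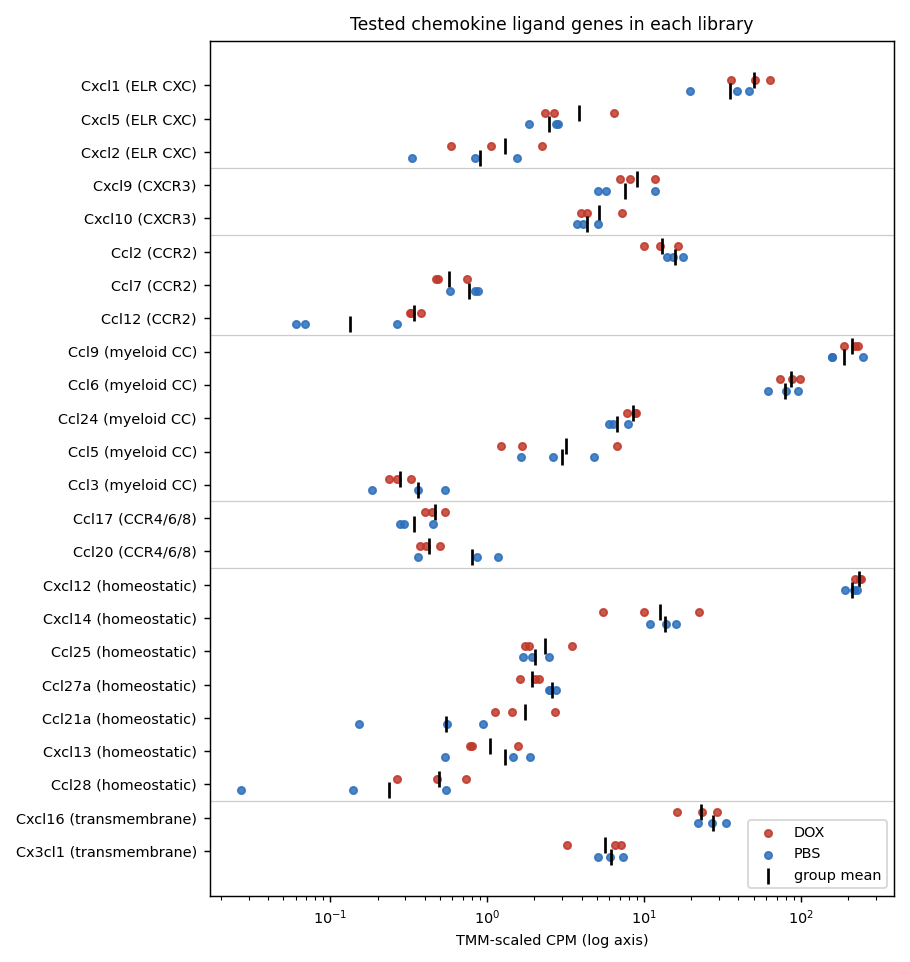
TMM-scaled CPM of the 24 tested chemokine ligand genes on a log axis, with 1 point per library (DOX above, PBS below in each row) and a bar at the group mean. The groups overlap for all but Ccl21a, Ccl12 and Ccl27a, and levels run from under 0.1 CPM to over 200 CPM.

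By level per transcript length, a few ligands made up most of the signal. Summed over the 36 genes, the deposited FPKM (counts scaled by gene length and library size) came to 306, 283 and 237 in DOX against 256, 271 and 279 in PBS, so the groups overlapped. Averaged over the 6 libraries, Ccl9 stood highest at 66.4 FPKM (range 55.9 to 83.8), followed by Ccl6 at 57.6 FPKM and Cxcl1 at 44.7 FPKM. Cxcl12 came next at 31.2 FPKM, and these 4 genes held 73.5% of the summed ligand FPKM. Ccl2 and Cxcl16 followed at 18.0 and 17.1 FPKM. Neighbours at the top were not all separated. Ccl9 was above Ccl6 in 5 of 6 libraries, Ccl6 above Cxcl1 in 4, Cxcl1 above Cxcl12 in 5, and Ccl2 above Cxcl16 in 4. In contrast, Cxcl12 was above Ccl2, and Cxcl16 above Ccl5 (5.91 FPKM), in all 6 libraries. The other 29 genes averaged 5.51 FPKM at most.

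**Figure D2:**
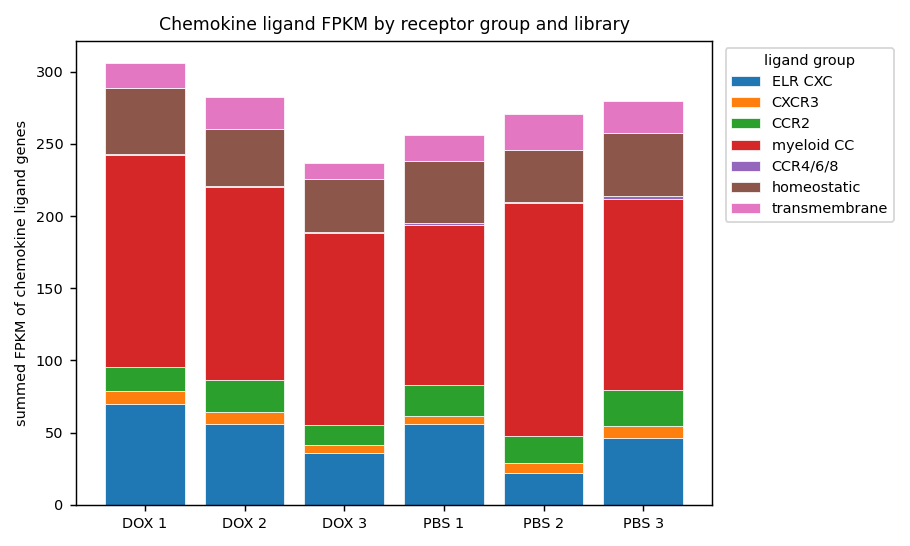
Summed deposited FPKM of the chemokine ligand genes in each library, stacked by ligand group. The myeloid and eosinophil CC ligands, mainly Ccl9 and Ccl6, form the largest block in each library, between 111 and 161 FPKM, and the ELR CXC block is smallest in PBS replicate 2, at 22.2 FPKM.

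The ELR CXC ligands carry the glutamate-leucine-arginine motif before their cysteines and attract neutrophils through Cxcr2. Of the 4 genes, 3 were tested and none passed, although all 3 log2 fold changes were positive. Cxcl1 (chromosome 5, 90891241 to 90893115), the main neutrophil chemokine among them by level, stood at 63.6, 51.3 and 35.8 CPM in DOX and 46.8, 19.7 and 39.0 CPM in PBS. Its groups overlapped, with DOX replicates 1 and 2 highest and PBS replicate 2 lowest. The fold was 1.43, with a 95% interval of 0.874 to 2.33 (edgeR adjusted p = 0.611). Cxcl2, a close relative that attracts the same cells, stood at 2.24, 0.591 and 1.05 CPM in DOX and 1.55, 0.333 and 0.829 CPM in PBS. Cxcl5, made largely by epithelial cells, stood at 6.46, 2.66 and 2.35 CPM in DOX and 2.82, 1.85 and 2.73 CPM in PBS. For each of the 3 genes DOX replicate 1 was the highest library and PBS replicate 2 the lowest, and leaving out DOX replicate 1 turned the log2 fold change of Cxcl2 to -0.14, in place of 0.51, and brought that of Cxcl5 to 0.03, in place of 0.63. Without PBS replicate 1, that of Cxcl2 was 1.15. Cxcl3, whose window holds the same 10 letters as those of Cxcl1 and Cxcl2, had at most 3 counts in a library and was not tested.

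Beside these ligands, the neutrophil markers did not run higher in DOX. Of the 10 markers 6 were tested and none passed, all 6 with a negative log2 fold change. Their sum ranged from 11.6 to 17.6 CPM in DOX and from 15.4 to 30.9 CPM in PBS, with no marker at 0 in every library. Cxcr2, the receptor of these ligands, named after its values were seen, stood at 2.11, 0.739 and 1.30 CPM in DOX and 2.08, 0.303 and 1.74 CPM in PBS. DOX replicate 1 was again its highest and PBS replicate 2 its lowest library. The Kupffer cell and liver endothelial marker sums had the same highest and lowest libraries. The neutrophil marker sum did not, with PBS replicate 1 highest and DOX replicate 2 lowest. In bulk tissue, fewer cells of a type and less RNA per cell cannot be told apart. The part of neutrophil, Kupffer or endothelial cell number in the ligand values was not tested.

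The ligands of CXCR3 are induced by interferons and attract activated T cells and NK cells. Both genes were tested, and neither passed. Cxcl9 stood at 8.11, 11.7 and 7.02 CPM in DOX and 5.68, 5.11 and 11.8 CPM in PBS. Its highest values were in DOX replicate 2 and PBS replicate 3, so the groups overlapped (fold 1.19, 95% interval 0.702 to 2.02, edgeR adjusted p = 0.829). Cxcl10, whose window is printed above, stood at 7.29, 4.31 and 3.97 CPM in DOX and 4.09, 5.08 and 3.75 CPM in PBS. DOX replicate 1 was highest, and without it the log2 fold change was -0.05 in place of 0.27. Exons of Cxcl10 overlap those of Art3 on the opposite strand, and the sources used here do not say whether strand was used in counting. Cxcr3 itself had 4 to 26 counts per library, at 0.513 ± 0.352 CPM in DOX and 0.395 ± 0.170 CPM in PBS (SD, n = 3 each).

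Of the ligands of CCR2 and their relatives, which draw inflammatory monocytes, 3 of 4 were tested and none passed. Ccl2, the principal ligand of CCR2, stood at 12.7, 16.5 and 9.96 CPM in DOX and 15.2, 14.0 and 17.7 CPM in PBS. DOX replicate 3 was lowest and DOX replicate 2 second highest, so the groups overlapped. The fold was 0.831 with a 95% interval of 0.620 to 1.11 (edgeR adjusted p = 0.661). Ccl7, which binds the same receptor, stood at 0.747, 0.473 and 0.486 CPM in DOX and 0.577, 0.878 and 0.829 CPM in PBS, again with overlap.

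Ccl12 (chromosome 11, 82101845 to 82103400), a further mouse ligand of CCR2, was 1 of the 3 members whose groups did not overlap. It held 12, 11 and 14 counts in DOX and 3, 2 and 10 counts in PBS, or 0.320, 0.325 and 0.378 CPM in DOX against 0.0692, 0.0605 and 0.268 CPM in PBS. PBS replicate 3 lay close to the DOX libraries. The fold was 2.54 with a 95% interval of 0.936 to 6.89 (edgeR adjusted p = 0.519), and the log2 fold change was 2.33 without PBS replicate 3, in place of 1.34. Ccl8, which acts mainly through CCR8 in mouse, was not tested and held 7, 8 and 29 counts in DOX and 4, 9 and 7 counts in PBS.

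The receptor Ccr2 stood at 9.58, 13.6 and 4.97 CPM in DOX and 12.6, 6.35 and 14.1 CPM in PBS, so the lowest libraries were DOX replicate 3 and PBS replicate 2. The 10 monocyte and macrophage markers were all tested and none passed. Their sum ranged from 372 to 592 CPM in DOX and from 440 to 668 CPM in PBS, with no marker at 0 in every library.

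Among the CC ligands of myeloid cells and eosinophils, 5 of 8 were tested and none passed. Ccl9 (chromosome 11, 83572919 to 83578636) and Ccl6 (chromosome 11, 83587882 to 83593087) are adjacent rodent genes of the CC class expressed by myeloid cells. Ccl9 stood at 222, 189 and 230.4 CPM in DOX and 159, 250.3 and 157 CPM in PBS. The DOX libraries lay within the range set by PBS replicate 2 at the top and the other PBS libraries below. Its fold was 1.13, with a 95% interval of 0.836 to 1.53 (edgeR adjusted p = 0.784). Ccl6 stood at 98.8, 73.7 and 88.2 CPM in DOX and 61.8, 95.8 and 80.0 CPM in PBS, with a fold of 1.10 (95% interval 0.837 to 1.44). These intervals leave out a rise or fall of 2-fold for both genes. PBS replicate 2, the lowest library for the ELR ligands, was the highest for Ccl9 and second highest for Ccl6.

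Ccl24, an eotaxin that attracts eosinophils through CCR3 and is made by macrophages, stood at 8.86, 7.74 and 8.80 CPM in DOX and 5.98, 6.29 and 7.86 CPM in PBS. DOX replicate 2 and PBS replicate 3 met in the middle, and the other libraries were separated by group. The fold was 1.26 with a 95% interval of 0.986 to 1.62 (edgeR adjusted p = 0.512). Kupffer cell markers, all 7 tested and none passed, summed to between 590 and 780.3 CPM in DOX and between 531 and 712 CPM in PBS.

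Ccl5, made by T cells and NK cells among others, varied widely within both groups. It stood at 1.65, 6.68 and 1.21 CPM in DOX and 1.64, 2.63 and 4.76 CPM in PBS. DOX replicate 2 and PBS replicate 3 were the highest, and DOX replicate 3 was the lowest. The fold was 1.05 with a 95% interval of 0.378 to 2.94 (edgeR adjusted p = 0.981), and its sign turned in 8 of 16 alternative settings, library size scaling among them. Without DOX replicate 2 the log2 fold change was -1.06, in place of 0.08. The T and NK cell markers together summed to 3.34, 8.74 and 3.02 CPM in DOX and 3.76, 3.78 and 6.13 CPM in PBS, with the same 2 libraries highest. Xcl1, a C-class ligand also made by these cells, had its highest count, 16, in DOX replicate 2, against 1 and 4 in the other DOX libraries and 7, 1 and 4 in PBS. Of 6 T cell markers 4 were tested and of 6 NK cell markers 3, and none passed. The dendritic cell marker sum also had DOX replicate 2 and PBS replicate 3 highest, at 12.2 and 11.2 CPM. So did the sum of the chemokine receptor genes, at 43.0 and 38.7 CPM. The part of any of these cells in the Ccl5 values was not tested.

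Ccl3, a ligand of CCR1, had 8 to 20 counts per library, at 0.276 ± 0.0445 CPM in DOX and 0.361 ± 0.175 CPM in PBS (SD, n = 3 each). Its relative Ccl4 was not tested and had 2 to 13 counts. Ccl11, the eotaxin of the chromosome 11 cluster, had 6 counts in DOX replicate 1 and at most 1 elsewhere, and Ccl26 had 1 count in all.

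The ligands of CCR4, CCR6 and CCR8 were low. Ccl20, the CCR6 ligand made by inflamed epithelium, stood at 0.374, 0.502 and 0.405 CPM in DOX and 0.854, 0.363 and 1.18 CPM in PBS. PBS replicates 1 and 3 were above all DOX libraries, and PBS replicate 2 was below them. The fold was 0.533 with a 95% interval of 0.248 to 1.14 (edgeR adjusted p = 0.566). Il1b, the interleukin that induces many chemokine genes, had the same 2 PBS libraries highest. It stood at 3.55, 4.67 and 3.27 CPM in DOX and 6.79, 3.45 and 9.79 CPM in PBS (edgeR adjusted p = 0.5002). The neutrophil marker sum also had PBS replicates 1 and 3 highest, at 30.9 and 23.0 CPM. The part of Il1b or of neutrophils in the Ccl20 values was not tested. Ccl17, a ligand of CCR4, stood at 0.461 ± 0.0715 CPM in DOX and 0.342 ± 0.0975 CPM in PBS (SD, n = 3 each). Ccl22 had at most 8 counts and Ccl1 a single count in all, and neither was tested.

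**Figure D3:**
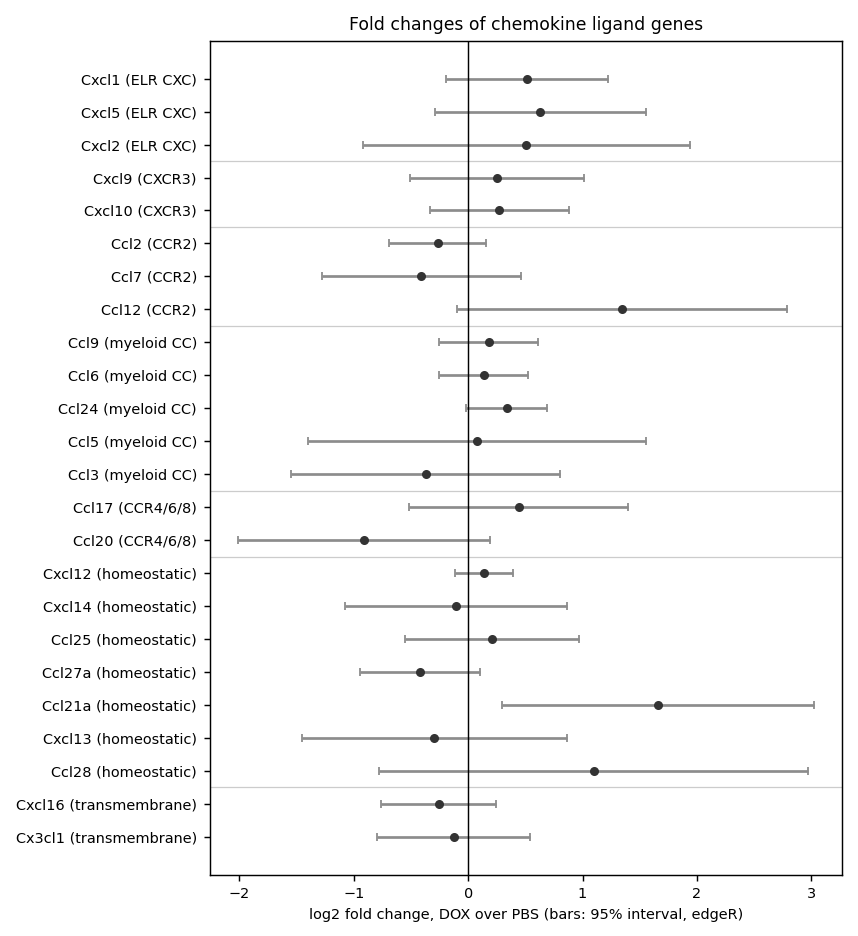
log2 fold changes of DOX over PBS for the 24 tested chemokine ligand genes, with 95% intervals from edgeR as bars and the genes in ligand groups. All intervals but that of Ccl21a (0.30 to 3.02) include 0, and the narrowest, that of Cxcl12, runs from -0.11 to 0.39.

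The homeostatic ligands guide leukocytes in resting tissue and lymphoid organs. Of the 11 genes, 7 were tested and none passed. Ccl21a (chromosome 4, 42772860 to 42773993), a ligand of CCR7 made by lymphatic endothelium and stromal cells, had the smallest p of all ligands. It held 101, 38 and 53 counts in DOX and 24, 5 and 35 counts in PBS. In CPM this was 2.70, 1.12 and 1.43 in DOX against 0.554, 0.151 and 0.936 in PBS, and all DOX libraries lay above all PBS libraries. The fold was 3.16 with a 95% interval of 1.23 to 8.12, which did not pass over all genes (edgeR adjusted p = 0.444, DESeq2 adjusted p = 0.166). The log2 fold change was 1.66, and leaving out 1 library moved it to between 1.21 (without DOX replicate 1) and 2.26 (without PBS replicate 3). Its unadjusted p was no longer under 0.05 without DOX replicate 1 or without PBS replicate 1.

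Near-identical copies of Ccl21a exist in the mouse genome, so reads could be split by the counting, and Ccl21b held 2 counts in all. The liver endothelial markers, 8 of 8 tested with 7 positive and none passing, summed to 240.0, 135 and 214 CPM in DOX and 166, 84.2 and 158 CPM in PBS. Their highest and lowest libraries, DOX replicate 1 and PBS replicate 2, were those of Ccl21a. The Kupffer cell marker sum had the same highest and lowest libraries, at 780.3 and 531 CPM. The part of endothelial or Kupffer cells in the Ccl21a values was not tested. Ccl19, the other ligand of CCR7, had 2 to 11 counts with overlap, and Ccr7 had at most 9.

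**Figure D4:**
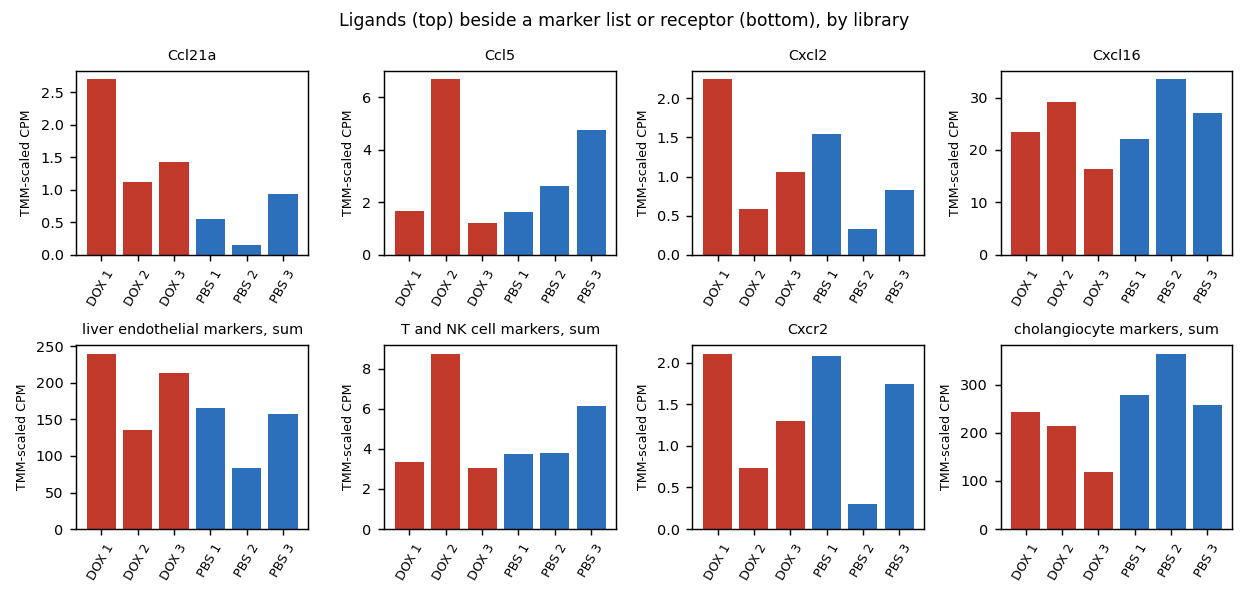
TMM-scaled CPM per library (DOX left in red, PBS right in blue) of 4 ligands in the upper row, and in the lower row of a marker list or receptor given beside each in the text. DOX replicate 1 is highest and PBS replicate 2 lowest for Ccl21a and for the endothelial sum, and DOX replicate 2 and PBS replicate 3 are highest for Ccl5 and for the T and NK sum. Other marker sums with the same libraries at these ends are given in the text.

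Cxcl12, which retains cells bearing CXCR4 and is scavenged by Ackr3, had the smallest standard error of the tested ligands, 0.11 on the log2 scale. It stood at 240.0, 221 and 241 CPM in DOX and 219, 190.1 and 228 CPM in PBS. PBS replicate 2 was lowest, and PBS replicate 3 lay above DOX replicate 2. The fold was 1.10 with a 95% interval of 0.923 to 1.31 (edgeR adjusted p = 0.706). Cxcr4 stood at 4.46, 5.997 and 2.32 CPM in DOX and 4.96, 6.63 and 5.08 CPM in PBS (fold 0.766, 95% interval 0.461 to 1.27). Ackr3 stood at 1.92, 0.473 and 1.05 CPM in DOX and 0.3001, 0.303 and 0.749 CPM in PBS (fold 2.55, 95% interval 0.992 to 6.55, edgeR adjusted p = 0.5005).

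Ccl27a (chromosome 4, 41769467 to 41774247), a ligand of CCR10 known from skin epithelium, was the only tested member with all DOX libraries below all PBS libraries. It stood at 2.03, 1.62 and 2.13 CPM in DOX and 2.52, 2.48 and 2.76 CPM in PBS. The fold was 0.747 with a 95% interval of 0.520 to 1.07 (edgeR adjusted p = 0.570). Exons of Ccl27a overlap those of Il11ra1 on the opposite strand, so reads of these 2 genes could not be told apart if strand was not used. The related Ccl27b, at a separate place on chromosome 4, had 1 count in all. Its receptor Ccr10 had at most 1 count in a library.

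Cxcl14, an epithelial and stromal chemokine, stood at 22.3, 10.04 and 5.51 CPM in DOX and 15.9, 11.0 and 13.7 CPM in PBS. The DOX libraries spanned the whole PBS range, and the sign turned in 3 of 16 settings (fold 0.930, 95% interval 0.474 to 1.83). Without DOX replicate 1 the log2 fold change was -0.80 in place of -0.10, and Cxcl14 was then the 1 ligand with an unadjusted p under 0.05 (edgeR adjusted p = 0.390). The 9 stellate and fibroblast markers, none of which passed, had DOX replicate 1 highest and DOX replicate 3 lowest as well. They summed to 511, 460.1 and 215 CPM in DOX and 354, 252 and 437 CPM in PBS. The sum of the NF-kB components and feedback genes had the same highest and lowest libraries, at 445 and 310 CPM. The part of stellate cells or fibroblasts in the Cxcl14 values was not tested. Cxcl13, which attracts B cells through CXCR5, stood at 0.774, 0.798 and 1.57 CPM in DOX and 1.45, 1.88 and 0.535 CPM in PBS. Of the 5 B cell markers 1 was tested, and their sum was 0.297 to 0.454 CPM in DOX and 0.303 to 0.600 CPM in PBS.

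Ccl25, the thymic and intestinal ligand of CCR9, stood at 2.34 ± 0.966 CPM in DOX and 2.03 ± 0.408 CPM in PBS (SD, n = 3 each), and its exons overlap those of Elavl1 on the opposite strand. Ccl28, a mucosal ligand of CCR10 and CCR3, held 18, 9 and 27 counts in DOX and 6, 18 and 1 counts in PBS. Its fold was 2.14 with a 95% interval of 0.583 to 7.86. The log2 fold change of 1.10 became 2.49 without PBS replicate 2 and 0.56 without PBS replicate 3. Cxcl17, a mucosal chemokine, was not tested, with 27 counts in DOX replicate 1, 21 in PBS replicate 2 and 3 to 7 in the other libraries.

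The transmembrane ligands are displayed on the cell surface and shed by proteases. Both were tested and neither passed. Cxcl16, the ligand of CXCR6, stood at 23.5, 29.2 and 16.3 CPM in DOX and 22.2, 33.5 and 27.0 CPM in PBS. Cx3cl1, the ligand of Cx3cr1, stood at 6.49, 7.15 and 3.24 CPM in DOX and 5.08, 7.32 and 6.05 CPM in PBS. Both genes had DOX replicate 3 lowest and PBS replicate 2 highest, and their folds were 0.836 (95% interval 0.591 to 1.18) and 0.915 (0.575 to 1.46). The cholangiocyte markers, 7 of 7 tested with 7 negative and none passing, had the same highest and lowest libraries, at 242, 213 and 119 CPM in DOX and 279, 364 and 257 CPM in PBS. Their DOX and PBS libraries did not overlap, unlike those of the 2 ligands. The monocyte and macrophage marker sum also had PBS replicate 2 highest, at 668 CPM, and DOX replicate 3 lowest, at 372 CPM. The part of bile duct cells or of monocytes and macrophages in the ligand values was not tested. Exons of Cxcl16 overlap those of Zmynd15 on the opposite strand.

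**Figure D5:**
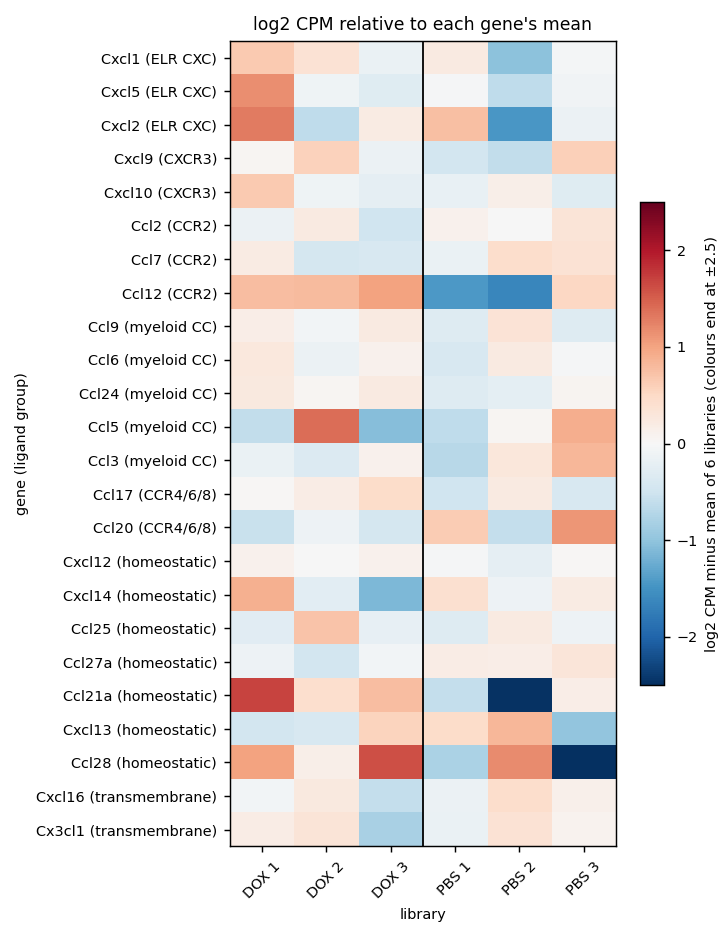
log2 CPM of each tested chemokine ligand gene minus its mean over the 6 libraries, with DOX libraries left of the line and PBS libraries right of it. DOX replicate 1 is the highest library for 8 of the 24 genes and PBS replicate 2 the lowest for 8, and the colours do not divide at the line for most genes.

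Of the 12 members below the filter, 7 had a library with more than 3 counts (Ccl11, Ccl19, Ccl22, Ccl4, Ccl8, Cxcl17 and Xcl1). Their groups overlapped, with exact two-sided permutation p of 0.5 to 1, in a design whose smallest p is 0.1. The other 5 (Ccl1, Ccl21b, Ccl26, Ccl27b and Cxcl3) had at most 1 to 3 counts in a library. None of the 12 passed in the fit without a filter.

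The other genes of the pathway were taken from lists. Of 16 chemokine receptor genes, 7 were tested, 3 of them positive and 4 negative, and none passed (lowest edgeR adjusted p = 0.694). Those of smallest p were Cx3cr1, the fractalkine receptor found on monocytes (fold 1.22, 95% interval 0.863 to 1.73), and Cxcr4. They were followed by Ccr2 and by Ccr1, the receptor of Ccl6 and Ccl9 (fold 0.878, 95% interval 0.518 to 1.49). Of the 5 genes listed as atypical chemokine receptors, 4 were tested and none passed. Beside Ackr3, Ackr2 stood at 1.41 ± 0.626 CPM in DOX and 0.831 ± 0.229 CPM in PBS (SD, n = 3 each). Ccrl2 stood at 1.95 ± 0.609 CPM in DOX and 2.63 ± 0.277 CPM in PBS, and Ackr1 at 0.396 ± 0.339 CPM in DOX and 0.301 ± 0.239 CPM in PBS.

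Among cytokines that induce chemokine genes, 4 of 8 were tested and none passed. Beside Il1b, Tnf stood at 0.568 ± 0.156 CPM in DOX and 0.383 ± 0.0765 CPM in PBS, and Ltb at 2.87 ± 0.750 CPM in DOX and 3.71 ± 0.441 CPM in PBS (SD, n = 3 each). Il1a had a fold of 1.013 (95% interval 0.629 to 1.63). Il6, named after its values were seen, was below the filter with 7, 5 and 14 counts in DOX and 5, 2 and 1 counts in PBS. In CPM its groups did not overlap, at a two-sided exact permutation p of 0.1, which is the lowest value possible here. Ifng had at most 2 counts.

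All 13 genes of the NF-kB components and feedback list were tested, with 1 positive, 12 negative and none passing, and a median log2 fold change of -0.12. Nfkbib, an inhibitor of NF-kB, had a fold of 0.841 (95% interval 0.679 to 1.04), and Nfkbiz, a nuclear relative, of 0.907 (0.738 to 1.11). Relb had a fold of 0.848 (0.563 to 1.28) and Nfkb2 of 0.867 (0.578 to 1.30), both of the noncanonical branch. Nfkbia, the inhibitor that NF-kB itself induces, stood at 51.4, 53.9 and 53.2 CPM in DOX and 57.7, 56.2 and 51.9 CPM in PBS.

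No marker of any list was at 0 in all libraries. Hepatocyte markers, 8 of 8 tested and none passing, summed to between 83414 and 140467 CPM in DOX and between 67350 and 82528 CPM in PBS, without overlap. Of these markers 5 had a positive and 3 a negative log2 fold change, with a median of 0.14. The hepatocyte markers of the labelled tissue were thus present in every library. Dendritic cell markers, 5 of 7 tested and none passing, summed to 5.48 to 12.2 CPM in DOX and 8.99 to 11.2 CPM in PBS. Mast cell and eosinophil markers, 2 of 4 tested and none passing, summed to 3.37 to 6.29 CPM in DOX and 2.30 to 3.44 CPM in PBS.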

How the data were processed

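For 6 mouse liver libraries, the authors deposited raw read counts for each gene, as whole numbers, and FPKM of the same genes. Per the labels' protocols, libraries were prepared from 1.3 ug of column-purified total RNA. GRCm38 and mm10 are named in the submitters' processing notes. No source used here names the aligner, the counter or its strand setting. The deposited FPKM equal counts divided by a fixed length and the library total for 18913 of 18913 genes checked (relative tolerance 1e-05). Libraries of a group differed beyond counting noise, with a chi-square of 44.8 to 142 for each degree of freedom, and none was merged.

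The counts went through edgeR 4.0.16 (R 4.3.3) with filterByExpr, TMM scaling and the quasi-likelihood test (legacy = TRUE) of DOX over PBS, without a block. Benjamini-Hochberg adjustment ran over all 13725 genes tested, with a threshold of 0.05. Standard errors and 95% intervals come from the F statistic. Single values had exact two-sided permutation tests. The procedure was tested on simulated counts. Alternatives were other scalings, DESeq2 1.42.0, limma-voom, limma 3.58.1 on log2(FPKM + 1) or log2(FPKM + 0.1), other filters, a test against a log2 fold change of 0.5, a replicate block, and each library left out in turn.

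All tested ligands are named, with up to 4 genes of smallest p from each pathway list. Ccr7, Ccr10, Cxcr2, Cxcr3, Il6, Ifng and Nfkbia were named after their values were seen. 1 receptor gene was left out of its list and is not analysed here. Members, roles and lists were chosen with earlier results of these data known. Coordinates are from GENCODE M21 on GRCm38, where all 36 members matched by symbol, and promoter windows from RefSeq. The floor of 3 counts covers counting error only.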

Additional observations from a re-analysis of the deposited data

How the results depend on the processing

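No ligand was called in any of the 16 alternative settings, including the fit without a filter, in which all 36 were tested. The lowest adjusted p of a ligand over these settings was 0.166, for Ccl21a with DESeq2. The median log2 fold change of the ligands ranged from 0.02 (FPKM) to 0.28 (without DOX replicate 3), and 9 of the 24 tested ligands changed sign in at least 1 setting, Ccl5 in 8 and Cxcl14 in 3. Over all genes, 4 changed, 3 higher and 1 lower. DESeq2 gave 180, with 130 higher and 50 lower, and no filter gave 61, with 45 higher and 16 lower. Limma-voom gave 2, with 1 higher. Library size scaling alone gave 5, with 3 higher and 2 lower. Testing against a log2 fold change of 0.5 gave 3, with 3 higher and 0 lower. Without any 1 library, 3 to 4 genes passed, 3 to 4 of them higher and 0 to 1 lower. What caused these shifts was not tested. A replicate block gave 21 genes, of which 17 were higher, 4 lower and 0 ligands. Deviations of same-numbered libraries correlated at 0.19, 0.13 and 0.01, and the labels give the numbers no meaning, so they were not taken as pairs. PBS replicate 3 correlated better with DOX replicate 1 (0.05) than with its own number. Ccl12, Ccl3 and Ccl17 rest on at most 20 counts a library, so only large differences were detectable for them. Their standard errors on the log2 scale were 0.63, 0.51 and 0.42. Some ligands with more counts had similar or wider ones, at 0.82 for Ccl28, 0.65 for Ccl5 and 0.62 for Cxcl2, and the same limit applies to them.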
